A study of Mus musculus with 12 samples.

Results

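Gene expression was compared between hepatocytes of Alb-R3 and Alb-Cre mice 48 h after an injection of oil, the vehicle arm of a toxicant study, so the comparison concerns the genotypes without chemical injury. All mice were male C57BL/6J animals of 8 to 10 weeks. The Alb-Cre controls carry the recombinase Cre under the albumin promoter, which is active in hepatocytes. Alb-R3 mice carry the same Cre and are labelled as lacking the fibroblast growth factor receptor gene Fgfr3 in hepatocytes. The other arm gave both genotypes carbon tetrachloride (CCl4), which injures hepatocytes around the central vein, in oil (0.4 mg for each g of body weight). Cells were freed by perfusion with the enzyme mix Liberase and enriched by differential centrifugation and a Percoll gradient, so cells other than hepatocytes are depleted and not removed one by one. Each of the 4 groups has 3 samples, and 6 of the 12 samples enter the comparison. Of the 35709 genes of the deposited table, the 18311 with a normalized count of at least 1 in at least 3 of the 6 oil libraries were tested. The labels do not say that the samples of a group came from separate animals, so the p-values reflect only how far these samples scatter, and some of that scatter may be technical.

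FGF receptors are membrane tyrosine kinases that pass signals of secreted fibroblast growth factors to the RAS and ERK kinases. In hepatocytes Fgfr4 is known as the main receptor. With the co-receptor beta-Klotho, encoded by Klb, it binds the gut hormone FGF19 (FGF15 in mice) and restrains bile acid synthesis, while FGF21 is a hormone that the liver itself secretes under nutrient stress.

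The 6 libraries held between 29700000 and 35700000 estimated reads, and mitochondrially encoded genes took 6.22% to 12.8% of their normalized counts. The highest of these shares was in Alb-Cre oil replicate 3, which also stood farthest out on the first principal component (29.6% of the variance). The second component (27.3%) separated the genotypes. Hepatocyte markers made up 8.74% to 11.7% of the counts in Alb-Cre against 9.42% to 11.4% in Alb-R3, with ranges that overlap, and each of the 12 markers was above 0 in all 6 libraries.

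Fgfr3 (ENSMUSG00000054252, GRCm38 chromosome 5, 33721674 to 33737068) is the gene labelled as deleted. In Alb-Cre its normalized counts were 734.9, 887.6 and 988.1, against 523.1, 650.5 and 1109 in Alb-R3. The library labelled Alb-R3 oil replicate 3 thus had the highest value of the 6, which goes against its label, while the other 2 Alb-R3 libraries lay below all the controls. The log2 difference was -0.26 ± 0.26 (SE, n = 3 per group; limma adjusted p = 0.997), and -0.57 without that library (adjusted p = 0.536). After CCl4 the 3 Alb-R3 values of 477.7, 372.1 and 382.3 lay below the 3 Alb-Cre values of 950.9, 705.7 and 753.0. That difference did not pass the test (-0.96 ± 0.19, limma adjusted p = 0.304). Over all genes tested after CCl4, 6.14% were lower in Alb-R3 without overlap. The deposited table has 1 value per gene, and the labels do not name the deleted exons, so a transcript that lacks them may still be counted. Directions are therefore given between libraries by their labels. In Cebpe and Gm30784, both called without it, the library labelled Alb-R3 oil replicate 3 was at 0 like the other 2 Alb-R3 libraries. Of the 50 genes called without it, it lay beyond all 3 controls on the called side in 43, against 31.2% of the genes tested. The same 3 controls had a part in choosing the 50 genes, so this count is a description and no test of the label. In Cyp2c39 it stood near Alb-Cre instead (56.57).

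Fgfr2, a receptor better known from epithelia, had the largest difference of the 4 receptor genes. Its counts were 1101, 924.6 and 824.6 in Alb-Cre against 454.1, 752.5 and 455.3 in Alb-R3, groups that do not overlap, but the difference of -0.81 ± 0.22 did not pass over all genes (limma adjusted p = 0.287). Fgfr1, Fgfr4, Klb and Fgf21 had overlapping groups, with log2 differences from -0.41 to 0.06. Per length, Fgfr4 had the highest level of the receptors in both genotypes (mean FPKM of 29.9 in each), ahead of Fgfr2 and Fgfr3 (12.6 and 11.3 in Alb-Cre) and far ahead of Fgfr1 (0.51). Of the 18 tested FGF and ERK feedback targets none passed, against 0.371% of all genes, a share at which most lists of this size hold no call. Their median log2 difference was -0.22, against 0.0078 over all genes. Against 3.54% of all genes higher and 4.25% lower at an unadjusted p under 0.05, 2 of the 18 were higher and 3 lower. The extreme of these was Phlda1, at 1246, 1038 and 818.6 in Alb-Cre against 1464, 6676 and 7750 in Alb-R3 (2.05 ± 0.52, adjusted p = 0.228), high in 2 of the 3 Alb-R3 libraries.

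**Figure D1:**
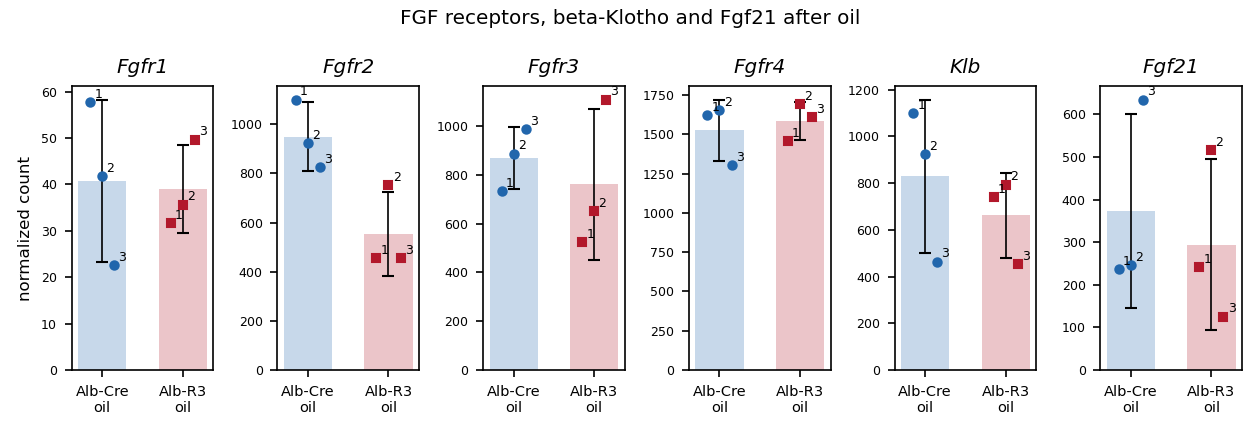
Normalized counts of 4 FGF receptor genes, Klb and Fgf21 in the 6 oil libraries. Points are libraries with their replicate number, bars and error bars are the mean and SD of 3 (every axis starts at 0). The library labelled Alb-R3 oil replicate 3 is the highest for Fgfr3, and only Fgfr2 has groups that do not overlap.

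Over all genes, 68 of 18311 passed limma at an adjusted p under 0.05, which is 0.371%. Of these, 33 were higher and 35 lower in Alb-R3, and 66 differed at least 2-fold. The groups of all 68 did not overlap, which a call with 3 samples a group nearly requires. Over all tested genes 12.3% did not overlap (6.23% higher and 6.1% lower). At an unadjusted p under 0.05 there were 1427 genes (7.79%). Many of the called genes had low counts: 29 had a mean below 100 normalized counts in both groups, and 11 were listed at 0 in all 3 libraries of a genotype, 7 in Alb-Cre and 4 in Alb-R3. With the library labelled Alb-R3 oil replicate 3 left out, 15 higher and 35 lower genes passed, 34 of them among the 68. That library, which had no part in these 50 calls, lay beyond all 3 controls on the called side in 43 of them, against 31.2% of the genes tested in that fit. The same count was 34 of 37 for Alb-R3 oil replicate 1 and 28 of 29 for replicate 2, each left out in turn. The controls chose these genes too, so the counts are a description. The count rested on Alb-Cre oil replicate 1: without it only 12 genes passed, against 29 to 38 without Alb-R3 oil replicate 1 or 2 or Alb-Cre oil replicate 2. Leaving out Alb-Cre oil replicate 3 gave 107. Of the 68, 34 passed in 1 model of 12 samples and 10 passed in every alternative in which they could be tested, and none changed direction.

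**Figure D2:**
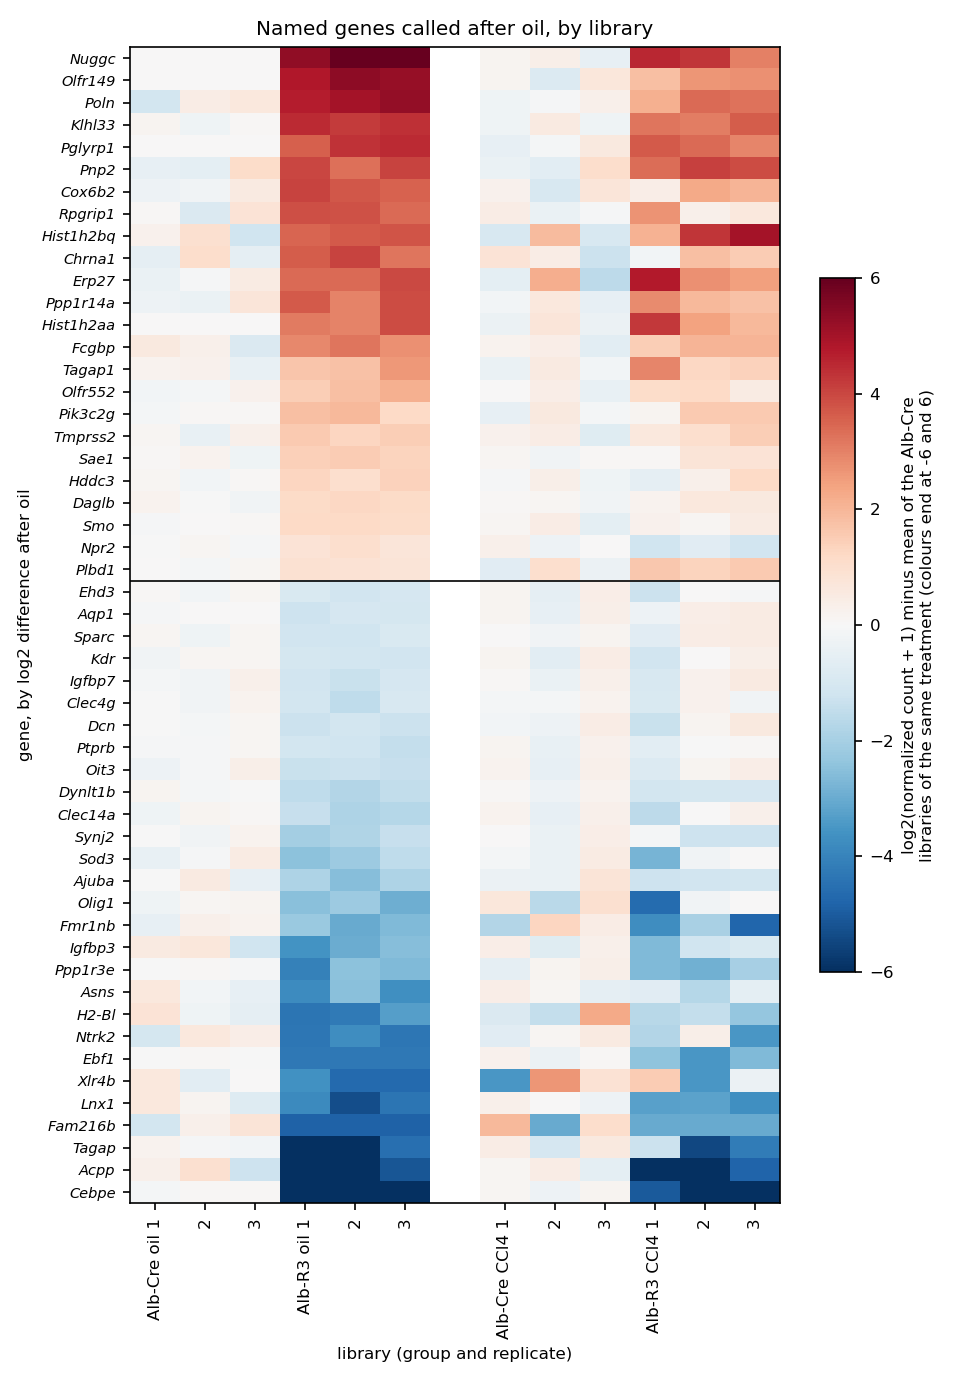
Heat map of the called genes with a gene name, without predicted and clone-named models, in the 6 oil libraries and, to the right of the gap, the 6 CCl4 libraries. Colour is log2(normalized count + 1) minus the mean of the 3 Alb-Cre libraries of the same treatment, and rows are ordered by the difference after oil. The rows were chosen on the 6 oil columns, so their signs after oil follow from the choice. In many of the rows of large difference the colour is seen again in the Alb-R3 CCl4 columns, and Npr2 has the opposite sign there.

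The sharpest difference was in Cebpe, a C/EBP transcription factor known from the maturation of granulocytes (ENSMUSG00000052435, chromosome 14, 54710360 to 54712174). It stood at 232.0, 261.5 and 263.7 in Alb-Cre and was listed at 0 in all 3 Alb-R3 libraries (limma adjusted p = 2.89e-05). Its values were alike across the controls. The 6 neutrophil markers together summed to 24.4 to 62.6 normalized counts in Alb-Cre against 22.01 to 43.4 in Alb-R3, ranges that overlap, with 1 to 3 of the 6 at 0 in each library, and their part in this result was not tested. Ebf1, a transcription factor of B cell development, was at 18.1, 19.5 and 18.2 in Alb-Cre and listed at 0 in Alb-R3 (adjusted p = 0.00568). Fam216b was at 12.6, 35.0 and 48.9 and listed at 0 in Alb-R3 (adjusted p = 0.008). In the opposite direction Nuggc, a GTPase gene known from germinal centre B cells, was listed at 0 in Alb-Cre and at 39.4, 69.1 and 95.8 in Alb-R3 (adjusted p = 0.000987). The odorant receptor gene Olfr149 was listed at 0 in Alb-Cre and at 27, 40.7 and 36.5 in Alb-R3 (adjusted p = 0.00174). Ebf1 and Nuggc are known from B cells, and the 5 tested B and plasma cell markers had a median log2 difference of -0.19, with sums that overlap between the groups. Pglyrp1, a peptidoglycan recognition protein of neutrophils, was listed at 0 in Alb-Cre and at 10.9, 19.3 and 21.3 in Alb-R3 (adjusted p = 0.0104, and 0.0723 without Alb-Cre oil replicate 1). Hist1h2aa, a testis histone gene, was listed at 0 in Alb-Cre and at 7.67, 6.81 and 14.2 in Alb-R3 (adjusted p = 0.0431), a call lost without any 1 Alb-Cre library (0.0511 to 0.192). A gene listed at 0 in 1 genotype leaves the filter when a library of the other is left out, so it was tested in 3 of the 6 such fits, and Cebpe, Ebf1, Fam216b, Nuggc and Olfr149 passed in each of the 3.

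Other genes were near 0 in 1 genotype. Poln, a DNA polymerase gene, was at 0, 1.94 and 2.39 in Alb-Cre against 54.7, 66.9 and 81.6 in Alb-R3 (4.98 ± 0.54, limma adjusted p = 0.00459). Acpp, the prostatic acid phosphatase, was at 208.7, 326.8 and 70.8 in Alb-Cre against 0, 0.55 and 3.85 in Alb-R3 (-6.44 ± 0.70, adjusted p = 0.00459). Lnx1, a ubiquitin ligase that binds the Notch regulator Numb, was at 331.8, 243.1 and 126.5 in Alb-Cre against 14.2, 4.53 and 9.46 in Alb-R3 (-4.51 ± 0.47, adjusted p = 0.00367). Acpp and Lnx1 did not pass once Alb-Cre oil replicate 1 was left out (adjusted p = 0.0632 and 0.057), while Poln kept its call without any 1 library. Cox6b2, a testis form of a cytochrome c oxidase subunit, was at 12.6, 13.6 and 23.9 in Alb-Cre against 280.1, 225.5 and 194.0 in Alb-R3 (3.76 ± 0.32, adjusted p = 0.00104). Klhl33 was at 4.23, 2.92 and 3.93 in Alb-Cre against 102.2, 85.0 and 97.3 in Alb-R3 (4.36 ± 0.35, adjusted p = 0.000987). Both passed in all 6 fits that leave out a library, as did Tagap, H2-Bl, Gm6614 and a clone-named transcript, 7 of the 54 called genes that could be tested in all 6.

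Several called genes are near-copies of a neighbour, between which pseudoalignment may split reads. Pnp2 was at 4.09, 3.83 and 14.6 in Alb-Cre against 114.3, 69.8 and 119.0 in Alb-R3, beside its paralog Pnp, a purine salvage enzyme, at 2847, 2921 and 2612 against 3434, 2829 and 3401. Their sum was 2851, 2925 and 2627 against 3548, 2899 and 3520, groups that overlap. Tagap, a GTPase activating protein known from lymphocytes, was at 72.3, 60.2 and 55.9 in Alb-Cre against 0, 0 and 1.80 in Alb-R3, whereas Tagap1 was at 117.8, 121.7 and 76.8 against 330.5, 349.9 and 624.7. The pair thus moved in opposite directions, and its sum was 132.7 to 190.1 in Alb-Cre against 330.5 to 626.5 in Alb-R3. The 8 T and NK cell markers summed to 14.3 to 27.3 normalized counts in Alb-Cre against 44.9 to 65.0 in Alb-R3, without overlap, with 2 to 6 of the 8 at 0 in each library. Of that sum Cd4 made up 24.2, 18.5 and 5.97 against 41.6, 41.9 and 63.9 (1.71 ± 0.50, adjusted p = 0.339), while the T cell receptor complex genes Cd3e, Cd3g and Trac were each at 0 to 3.58, and the part of these cells in the result for Tagap was not tested. Dynlt1b, a dynein light chain gene, was at 1112, 939.3 and 979.9 in Alb-Cre against 355.3, 296.2 and 366.7 in Alb-R3 (-1.57 ± 0.16, limma adjusted p = 0.00367). The sum of Dynlt1a, Dynlt1b, Dynlt1c and Dynlt1f was 1107 to 1298 in Alb-Cre against 427.8 to 530.1 in Alb-R3, groups that do not overlap either. Gm6614, which lies in the Slco1a organic anion transporter cluster, was at 0, 7.79 and 7.17 in Alb-Cre against 823.4, 901.4 and 1290 in Alb-R3 (7.89 ± 0.72, adjusted p = 0.00171). Slco1a1 of the same cluster was at 10230, 13920 and 5040 in Alb-Cre against 20930, 25050 and 19440 in Alb-R3, which did not pass (1.28 ± 0.32, adjusted p = 0.223). Without Alb-Cre oil replicate 1 the calls of Dynlt1b, Pnp2 and Tagap1 were lost (adjusted p = 0.0613, 0.0931 and 0.114). Pnp2 also lost its call without Alb-R3 oil replicate 1 or the library labelled replicate 3, and Tagap1 without Alb-Cre oil replicate 2 or Alb-R3 oil replicate 2.

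Chromosomes 14, 6, 7, 17 and 5, each with over 10% of the called genes, together held 42 of the 68. As a description of chromosomes chosen in this way, the share of tested genes called was 1.39% on chromosome 14, 0.927% on chromosome 6, 0.88% on chromosome 17, 0.599% on chromosome 7 and 0.563% on chromosome 5, against 0.371% over all. On chromosome 14, 4 called genes were higher and 5 lower. The lowest coordinates of Klhl33 and Pnp2, whatever their strand, are 0.0674 Mb apart, and both genes were higher. Rpgrip1, a gene of photoreceptor cilia, was also higher at 10.5, 4.86 and 17.9 against 159.6, 151.9 and 112.1 (3.70 ± 0.44, limma adjusted p = 0.00723). The lowest coordinates of Ajuba and Ppp1r3e are 0.143 and 0.162 Mb from that of Cebpe, and all of these genes were lower. Ajuba, a LIM protein of the Hippo pathway, was at 126.6, 190.2 and 92.4 against 35.1, 21.7 and 35.5 (-2.08 ± 0.34, adjusted p = 0.0431). Ppp1r3e, which targets a phosphatase to glycogen, was at 86.1, 91.4 and 83.5 against 4.38, 14.7 and 13.01 (-3.06 ± 0.44, adjusted p = 0.0195). All 9 called genes of chromosome 7 were higher, among them Gm44992 (0, 0.97 and 0 against 72.2, 78.2 and 89.0) and the SUMO-activating enzyme subunit Sae1 (451.4, 496.8 and 369.9 against 1170, 1265 and 1096, 1.43 ± 0.17, adjusted p = 0.00613).

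On chromosome 17, 7 of 8 were lower, among them Tagap and Dynlt1b and the inositol phosphatase Synj2 (300.3, 263.6 and 348.8 against 72.2, 86.5 and 113.6, -1.75 ± 0.23, limma adjusted p = 0.0123). On chromosome 6, the lowest coordinates of Gm6614 and Gm30784 are 0.105 Mb apart, and the genes went in opposite directions. The noncoding Gm30784 was at 116.5, 92.4 and 38.2 in Alb-Cre and listed at 0 in Alb-R3 (adjusted p = 0.00104). Pik3c2g, a class II phosphoinositide kinase known from liver and also on chromosome 6, was higher at 154.3, 176.0 and 174.2 against 589.8, 652.8 and 390.3 (1.66 ± 0.22, adjusted p = 0.012). On chromosome 5, which carries Fgfr3, Poln was the called gene nearest to it, with lowest coordinates 0.286 Mb apart. Without Alb-Cre oil replicate 1 the calls of Rpgrip1, Sae1, Ppp1r3e, Synj2, Pik3c2g and Ajuba were lost (adjusted p from 0.0632 for Sae1 to 0.234 for Ajuba). Ajuba kept its call without Alb-Cre oil replicate 3 alone. Synj2 and Pik3c2g were also lost without Alb-R3 oil replicate 1 or 2, and Ppp1r3e without Alb-Cre oil replicate 2.

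Asns, asparagine synthetase, was the only called member of the list of ATF4 and amino acid stress genes. ATF4 is a transcription factor that is made when amino acids run short or the endoplasmic reticulum is stressed, and it binds a composite C/EBP and ATF element, often read as TGATGNAA, near the start of its targets. The element was searched in the RefSeq windows of 250 bases before to 50 after each gene start (build GRCm38.p6), on both strands, where its reverse complement reads TTNCATCA. It was found in the windows of 11 of the 34 listed genes that have one, and in those of 4.51% of 27025 genes. For Asns, which was called, and for 6 genes of the list that hold the element and were not, these are the 30 bases around it, 5′ to 3′ on the gene's strand and with the element in capitals. Vldlr, Nupr1 and Slc1a4 are the holders besides Asns with an unadjusted p under 0.05, and Chac1, Atf3 and Pycr1 are well-known targets.
Asns: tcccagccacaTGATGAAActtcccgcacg
Chac1: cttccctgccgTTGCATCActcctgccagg
Atf3: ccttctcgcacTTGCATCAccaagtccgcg
Pycr1: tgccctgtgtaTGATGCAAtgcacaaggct
Vldlr: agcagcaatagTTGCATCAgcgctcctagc
Nupr1: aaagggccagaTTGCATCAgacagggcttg
Slc1a4: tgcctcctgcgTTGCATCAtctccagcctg
The stretch of Asns lies at chr6:7693214-7693243 on the minus strand and its element starts 23 bases before the RefSeq gene start, which GENCODE M21 places in a UTR of a longer transcript. That of Chac1 lies at chr2:119351038-119351067 on the plus strand, 193 bases before the start and upstream of the annotated gene. Those of Pycr1 (chr11:120643833-120643862, minus strand, 103 bases before) and Atf3 (chr1:191183425-191183454, minus strand, 110 bases before) are annotated as upstream and intronic. The stretches of Vldlr (chr19:27216809-27216838, plus strand, 200 bases before) and Nupr1 (chr7:126625562-126625591, minus strand, 110 bases before) lie in an exon and a UTR. That of Slc1a4 (chr11:20332699-20332728, minus strand, 4 bases before) lies in a UTR. A match is a description of letters and not a measured binding site.

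Asns was at 417.8, 236.2 and 192.1 in Alb-Cre against 18.6, 45.3 and 20.1 in Alb-R3 (-3.32 ± 0.40, limma adjusted p = 0.00795). Each Alb-R3 library lay far below the lowest control. Leaving out Alb-Cre oil replicate 1 ended the call (-3.00, adjusted p = 0.0744). Of the 38 tested genes of the list 1 passed, against 0.371% of all genes, and the median was -0.02. At an unadjusted p under 0.05, 4 were lower and 2 higher, against 4.25% and 3.54% of all genes. Chac1, which degrades glutathione, had a log2 difference of 0.46 ± 0.45, and Atf3, a stress-induced transcription factor, one of 0.16 ± 0.45. Trib3, a pseudokinase that restrains ATF4, had one of -0.09 ± 0.35. Pycr1, of proline synthesis, had -0.44 ± 0.52, and Vldlr and Nupr1 had -1.16 ± 0.38 and -1.11 ± 0.40 with groups that do not overlap. Slc1a4, a neutral amino acid transporter, had 0.63 ± 0.25, also without overlap, and none of these passed the test (adjusted p = 0.417 to 0.997). After CCl4 the Alb-R3 values of Asns were 301.2, 142.8 and 320.6 against 626.1, 525.0 and 330.8, without overlap but not past the test (-0.99 ± 0.37, adjusted p = 0.753).

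**Figure D3:**
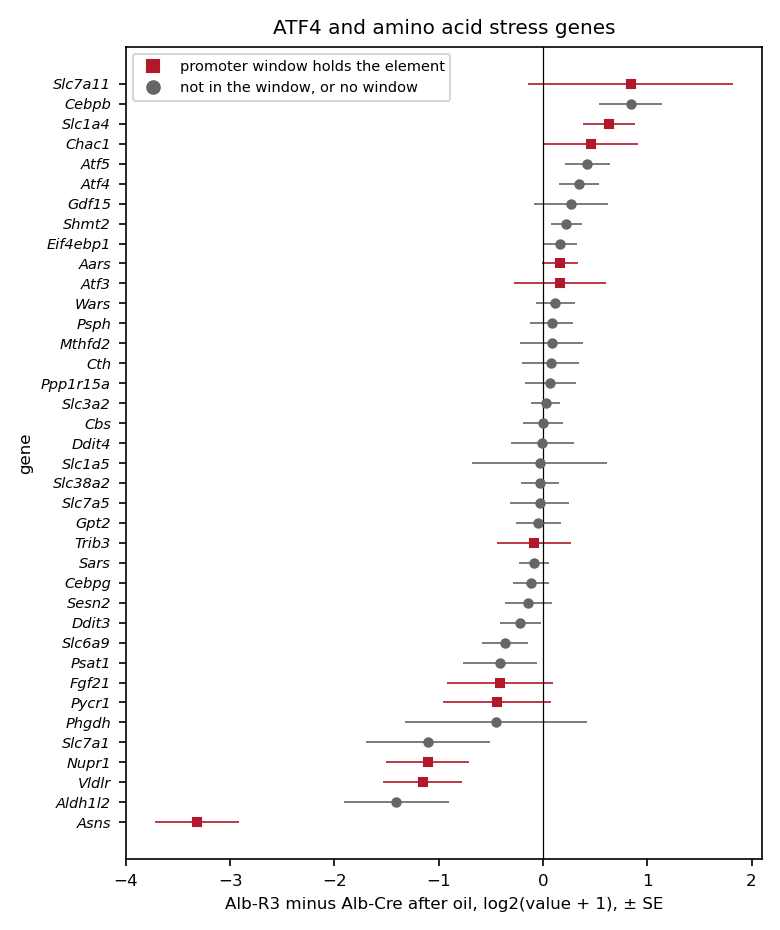
Log2 difference between Alb-R3 and Alb-Cre after oil, with SE, for the 38 tested genes of the ATF4 and amino acid stress list. Red squares are genes whose promoter window holds the element. Asns at -3.32 stands apart, and the other genes that hold the element lie on both sides of 0.

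Markers of sinusoidal endothelium, stellate cells and macrophages had lower values in Alb-R3, and 4 endothelial markers and 1 stellate marker passed the test. Of 12 endothelial markers 4 passed, all lower, against 0.191% of all genes called lower. Kdr, the main receptor for VEGF, was at 333.9, 426.8 and 418.9 in Alb-Cre against 186.0, 181.3 and 173.8 in Alb-R3 (-1.11 ± 0.18, limma adjusted p = 0.0422). Ptprb, the vascular endothelial phosphatase, was at 478.0, 480.5 and 547.1 against 231.0, 217.4 and 182.6 (-1.25 ± 0.18, adjusted p = 0.0167). In both, every Alb-R3 library lay below the lowest control. The sinusoidal lectin Clec4g (-1.21 ± 0.20, adjusted p = 0.0436) and Oit3 (-1.33 ± 0.22, adjusted p = 0.0431) were the other two. All 12 endothelial differences were negative and 11 had an unadjusted p under 0.05, against 4.25% of all genes with a lower value at that p, and their median was -1.11. Of 11 tested stellate cell and fibroblast markers, Dcn, the matrix proteoglycan decorin, passed at 736.0, 673.7 and 804.3 against 296.6, 346.8 and 305.1 (-1.22 ± 0.16, adjusted p = 0.012). All 11 differences were negative, 8 had an unadjusted p under 0.05, and the median was -1.11. Of 12 Kupffer cell and macrophage markers none passed, 10 were lower at an unadjusted p under 0.05, all 12 differences were negative, and the median was -1.03. The count of 10 fell to 4 without Alb-Cre oil replicate 1 and to 5 in 1 model of 12 samples. The complement gene C1qb was at 304.5, 153.6 and 254.2 against 104.0, 98.6 and 134.8 (-1.03 ± 0.28, adjusted p = 0.285).

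Summed, the endothelial markers took 0.012% to 0.016% of the counts in Alb-Cre against 0.00677% to 0.00685% in Alb-R3, and the stellate markers 0.00431% to 0.0046% against 0.00188% to 0.00236%. The Kupffer markers took 0.00451% to 0.00878% against 0.0029% to 0.00375%. None of the endothelial or Kupffer markers was at 0 in any oil library, and at most 1 of the 12 stellate markers was. In bulk samples fewer cells of a type and less RNA per cell cannot be told apart. Other genes known from vessels or matrix were picked, after their values were seen, from those called lower, so their direction follows from the choice. They were Clec14a, Ehd3, the water channel Aqp1, the matrix genes Sparc and Igfbp7 and the extracellular superoxide dismutase Sod3, with differences from -2.05 (Sod3) to -1.03 (Ehd3). Of the 5 called list markers and these 6, none had groups without overlap after CCl4, against 12.8% of all genes (6.14% lower). At that share so few genes may well hold none, so the count is no result about them. The 4 endothelial calls were lost without any 1 library other than Alb-Cre oil replicate 3, without which Ptprb and Oit3 kept theirs (largest adjusted p = 0.253, for Clec4g), and 1 model of 12 samples kept 1 of the 4. Dcn lost its call without Alb-Cre oil replicate 1 or Alb-R3 oil replicate 1 (adjusted p up to 0.114), without the variance trend (0.0782) and in 1 model of 12 samples (0.35). The medians held with any library left out, at -1.13 to -1.03 for endothelial, -1.12 to -0.86 for stellate and -1.24 to -0.82 for Kupffer markers.

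**Figure D4:**
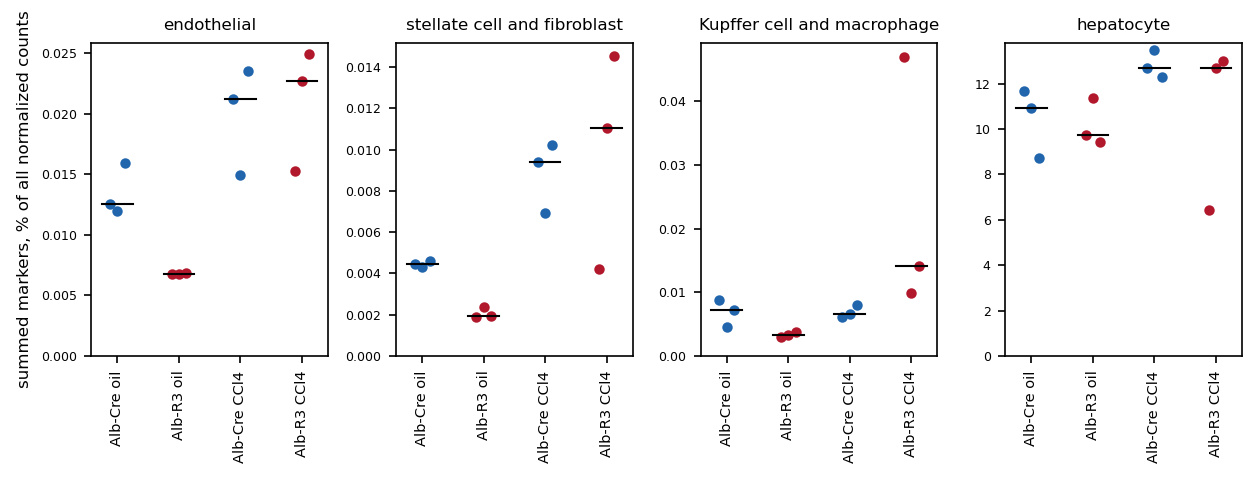
Summed normalized counts of the markers of 4 cell types, as a percentage of all normalized counts, in each of the 12 libraries. Points are libraries, lines are medians of 3, and every axis starts at 0. After oil the 3 Alb-R3 libraries lie below the 3 Alb-Cre libraries for endothelial, stellate and Kupffer markers, while hepatocyte markers overlap. Of the 9 marker lists not plotted, T and NK cells had sums without overlap, higher in Alb-R3, where the sum was mostly Cd4. The 4 tested members of that list had 2 positive and 2 negative differences (median -0.06).

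Beyond these, few pathway genes passed, as few of all genes did (0.371% called, 0.18% called higher). Of 46 pathway lists, with 11 to 54 tested members each, 41 had no called member and none had a member called higher. At that share most lists of this size hold no call, so the counts are no result about pathways. Igfbp3, which carries IGF1 in blood and in liver is known from non-parenchymal cells, was the called member of the growth hormone list, at 186.9, 207.1 and 56.1 in Alb-Cre against 9.85, 15.9 and 21.3 in Alb-R3 (-3.03 ± 0.51, limma adjusted p = 0.045). Ntrk2, a neurotrophin receptor listed among female-biased liver genes, was at 20.6, 69.2 and 57.3 against 1.20, 2.33 and 1.18 (-4.14 ± 0.54, adjusted p = 0.012). Igfbp3 kept its call without Alb-Cre oil replicate 3 only (adjusted p up to 0.269 without another library), and Ntrk2 lost its call without Alb-Cre oil replicate 2 (0.0697). Smo, the Hedgehog signal transducer, was higher at 152.5, 162.6 and 167.7 against 364.7, 365.6 and 344.5 (1.15 ± 0.17, adjusted p = 0.0249). Its values are tight within each group, yet the call was lost without any 1 library but Alb-Cre oil replicate 3 (adjusted p up to 0.188).

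Of 54 tested cytochrome P450 genes of families 1 to 4, none passed, against 0.371% of all genes, and their median was 0.10. At an unadjusted p under 0.05, 6 were higher and 6 lower, against 3.54% and 4.25% of all genes. Cyp2a4, a steroid hydroxylase known as higher in female liver, was at 126.0, 47.9 and 693.3 in Alb-Cre against 2345, 3385 and 3882 in Alb-R3 (4.27 ± 0.75, limma adjusted p = 0.0561). Its near-copy Cyp2a5 was at 16690, 12050 and 12180 against 6525, 9212 and 11020 (-0.63 ± 0.22, adjusted p = 0.469). Reads could be split between these copies: with Cyp2a22 they summed to 12174 to 16861 in Alb-Cre against 8903 to 14934 in Alb-R3, ranges that overlap. Cyp4a10, a fatty acid hydroxylase under PPARA control, was at 21220, 10420 and 21840 against 6425, 6189 and 3700 (-1.68 ± 0.31, adjusted p = 0.0745). Cyp2c39 was at 44.4, 18.7 and 48.4 in Alb-Cre against 3177, 3460 and 56.6 in Alb-R3 (4.60 ± 1.29, adjusted p = 0.305). Here the library labelled Alb-R3 oil replicate 3 was near the Alb-Cre level. The same library differed from the other 2 in the major urinary protein gene Mup19, at 0, 0 and 120800 in Alb-R3 against 22720, 49540 and 69700 in Alb-Cre. Mup11 gave 3478, 3262 and 103900 against 56960, 78950 and 53510. These near-identical genes share reads, so single values are uncertain, and none passed the test. Of the 22 tested major urinary protein genes 13 had a positive and 9 a negative difference, with a median of 0.40. At an unadjusted p under 0.05, 7 of the 22 were higher and 4 lower, so Mup19 and Mup11 do not stand for the list.

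Several lists without a called member had differences mostly of 1 sign. Those below were picked with the values of all lists seen. Lists left out include gluconeogenesis, glycolysis and glycogen (26 of 34 negative) and complement and coagulation (29 of 39 positive). Genes of a list can move together in a library, so the counts are a description. Of 25 genes of cholesterol synthesis and other SREBP2 targets, 24 had a positive difference, with a median of 0.39 (51.2% of all tested genes were positive) and 6 at an unadjusted p under 0.05, against 3.54% of all genes higher at that p. Mevalonate kinase, Mvk, was at 1066, 511.4 and 716.0 against 1192, 1157 and 1579 (0.83 ± 0.25, limma adjusted p = 0.378). The HMG-CoA synthase Hmgcs1 was at 12540, 6115 and 9949 against 15210, 12550 and 18450 (0.74 ± 0.26, adjusted p = 0.47). In both the lowest value of all is that of Alb-Cre oil replicate 2, and without it 21 of 25 were positive with a median of 0.26. The direction was lost with library weights, where 13 of 25 were negative. Of 35 genes of fatty acid oxidation and PPARA targets, 28 were negative with a median of -0.10. At an unadjusted p under 0.05, 6 were lower, against 4.25% of all genes. This weakened to 21 of 35 (median -0.04) with the library labelled Alb-R3 oil replicate 3 left out and to 22 of 35 without Alb-Cre oil replicate 1, and the count of 6 was 3 to 8 with a library left out and 1 in 1 model of 12 samples. Of 30 acute phase proteins 26 were positive (median 0.16), but 17 were negative with library weights. Of 30 periportal genes 24 were negative (median -0.15), and 18 without Alb-Cre oil replicate 2 (-0.04). Of 29 DNA replication genes 24 were negative (-0.19). Of 28 nuclear genes of the respiratory chain 23 were negative (-0.09), and 15 without Alb-Cre oil replicate 3 or without Alb-R3 oil replicate 2. Of 13 mitochondrially encoded genes 12 were negative (-0.19), but 3 without Alb-Cre oil replicate 3, the oil library with the highest mitochondrial share. With library weights 540 of all 18311 genes passed as lower. Among them were 4 of 35 oxidation and PPARA genes, 5 of 30 periportal and 2 of 29 DNA replication genes. So were 2 of 32 pericentral and 2 of 47 interferon response genes. Among pericentral genes 23 of 32 were positive with a median of 0.21, and 10 were higher without overlap of the groups, against 6.23% of all genes. None of the 32 passed in the main fit. Of the 28 immediate-early genes, 6 were higher and 1 lower at an unadjusted p under 0.05, against 3.54% and 4.25% of all genes. Such genes are known to respond to cell isolation, and their part in the other results was not tested.

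The CCl4 libraries of the same genotypes gave a comparison that shares no sample with the oil one. Of the 68 genes, 65 could be tested there, and 60 differed in the same direction, against 49.9% of the 17117 genes tested after both treatments. In 38 the CCl4 groups also did not overlap, 22 of them higher and 16 lower, against 12.8% of all genes (6.7% higher and 6.14% lower). Of the 13 genes called after CCl4 (0.0719%), 6 were among the 68, in the same direction: Cebpe, Acpp and Lnx1, Gm6614 and Gm30784, and Gm5678, which was listed at 0 in all 6 Alb-Cre libraries and stood at 103.7 to 221.6 in the 6 of Alb-R3. Cebpe was at 145.8, 110.9 and 154.6 in Alb-Cre against 3.10, 0 and 0 in Alb-R3 after CCl4 (limma adjusted p = 0.0221). Poln was at 1.95, 2.29 and 3.33 against 14.4, 35.9 and 32.1 (2.94 ± 0.51, adjusted p = 0.21). Of the 11 genes listed at 0 in 1 genotype after oil, 10 could be tested, and all 10 had groups without overlap in the same direction. Without Alb-R3 CCl4 replicate 1, which has 32.3% mitochondrial counts, 60 genes could be tested and 50 differed in the same direction, 5 of them called.

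**Figure D5:**
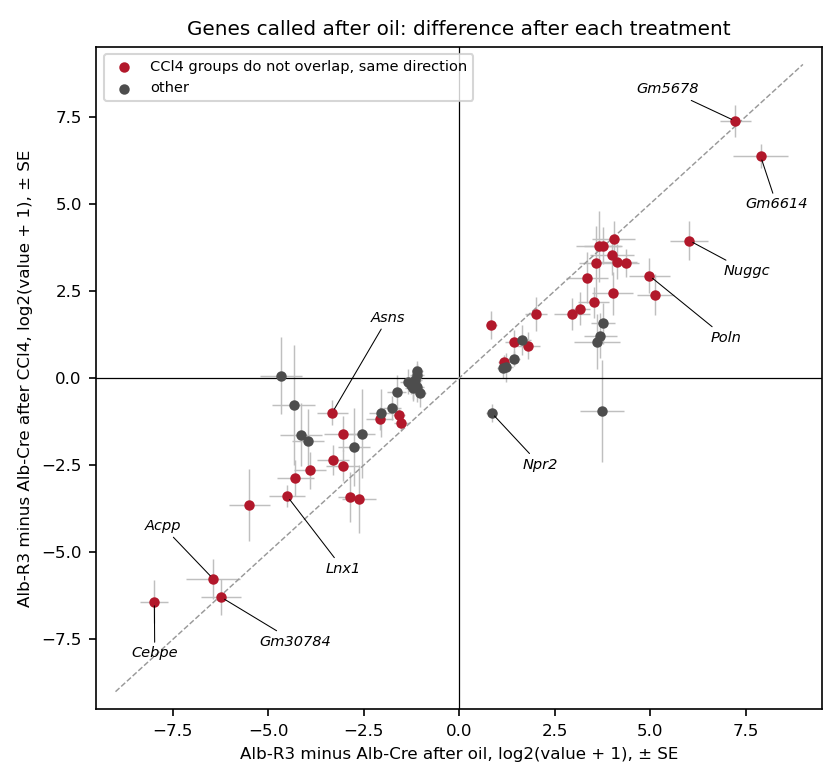
Log2 difference between Alb-R3 and Alb-Cre after CCl4 (y) against that after oil (x), each with SE, for the 65 genes called after oil and tested after both. Red points are the 38 genes whose CCl4 groups do not overlap, in the same direction, and the dashed line marks equal differences. Differences of genes at 0 in 1 group depend on the pseudocount and are no measure of size.

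No gene passed the test of a genotype difference that changes with treatment (limma interaction over 12 libraries, 0 of 18311, and 1377, or 7.52%, at an unadjusted p under 0.05). The smallest p was that of Npr2, the receptor for C-type natriuretic peptide. It was higher in Alb-R3 after oil, at 1998, 2236 and 1854 against 1110, 1208 and 1054 (0.85 ± 0.14, adjusted p = 0.0461). After CCl4 it was at 127.9, 184.6 and 129.9 against 364.6, 233.3 and 292.6 (-1.002 ± 0.25, adjusted p = 0.617). The interaction was -1.85 ± 0.27 (adjusted p = 0.254), and the call after oil was lost without any 1 library but Alb-Cre oil replicate 3 (adjusted p up to 0.276).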

How the data were processed

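RNA-seq of isolated hepatocytes was quantified by the authors with kallisto 0.44.0, a pseudoaligner, and edgeR on build GRCm38.p6, per the submitters' processing notes. The deposited values are a signal, normalized counts per gene, and FPKM. The labels do not state strand use, so a gene and its antisense partner cannot be told apart. Low values were whole multiples of the value of 1 read (tolerance 0.02) for 68.4% to 72.6%, so reads were estimated and no count model was run. The 6 oil libraries were fitted with limma 3.58.1 in R 4.3.3 on log2(normalized count + 1) with a mean-variance trend (4 residual degrees of freedom), and p-values were adjusted by Benjamini-Hochberg over 18311 genes. Fold changes on that scale understate those of low genes. The CCl4 libraries (18086 genes) and the interaction were fitted likewise. The fit was run on simulated data, with fold changes set in genes of higher mean. The median fitted change was checked at each set size, and the sign of each gene only at the largest size. A drop to 0 in 1 genotype was not simulated, so calls of that kind were not checked in this way. Positions and symbols come from GENCODE M21 (35574 of 35709 IDs had a symbol). The comparison, the 46 pathway and 13 marker lists and their tests were chosen with earlier results of these data known. Named genes were 6 FGF genes, the 15 called genes of largest difference in each direction (mean of at least 5, no predicted names), called list members, called genes of chromosomes holding over 10% of them, and the 5 of smallest interaction p. For a list without a call, the 2 members of largest difference could be named. Others were chosen after their values were seen: Pnp, Cyp2a5, Mup11, Clec14a, Sparc, Gm5678, C1qb, Hmgcs1, the T cell markers and the ATF4 list genes other than Asns. The replicate numbers are not stated to pair the samples, so a replicate block was an alternative only. Alternatives were other normalization, filters, pseudocounts (0.1 and 5), variance models, FPKM and libraries left out. The count of each left-out Alb-R3 library against the controls, and the lists under all alternatives, were added after seeing the data.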

Additional observations from a re-analysis of the deposited data

Results flagged for a closer look

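Some genes had groups that did not overlap after oil and did not overlap in the opposite direction after CCl4. The interaction (change of the log2 genotype difference from oil to CCl4, limma) was -1.85 for Npr2, 2.40 for Cd93, -4.28 for AC154806.1, 2.28 for Anxa2 and 1.46 for Epb41l2, the 5 of smallest p, with adjusted p from 0.254 to 0.358. Cd93, of endothelium, had oil values of 58.6, 52.1 and 53.8 in Alb-Cre against 27.4, 18.1 and 28.5 in Alb-R3. Its CCl4 values were 105.4, 83.0 and 99.6 against 314.8, 175.9 and 215.2. AC154806.1 was listed at 0 in the 3 Alb-R3 CCl4 libraries, so its size depends on the pseudocount.

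Among Kupffer cell and macrophage markers the same was seen for Vsig4 (2.48), Timd4 (1.86), Adgre1 (2.48), C1qb (2.59) and Csf1r (2.26), none past the interaction test (limma adjusted p from 0.358 to 0.46). The summed share of the 12 markers changed by 2.45 on the log2 scale, a difference that was not tested. After CCl4 that share was 0.00604% to 0.00797% in Alb-Cre and 0.0099% to 0.047% in Alb-R3. The highest value was in Alb-R3 CCl4 replicate 1, and all 12 differences stayed positive without it, with a median of 0.75 in place of 1.51.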

How the results depend on the processing

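The count of 68 genes was 57 with quantile normalization, 51 without the filter, 65 with a pseudocount of 5 and 60 from FPKM, within 1.5 times. It was 43 in 1 model of 12 samples (34 shared), 41 without the variance trend, 36 with a value of at least 1 in all samples, 44 with a pseudocount of 0.1 and 1018 with library weights, which ranged from 0.301 for Alb-Cre oil replicate 3 to 4.22 for Alb-Cre oil replicate 1. Leaving out 1 library gave 12 to 107. The cause was not tested. The labels do not state that the replicate numbers pair the samples. Deviations from the group mean had correlations of 0.0239, 0.147 and 0.221 between libraries of the same number. Between those of different numbers they were -0.187 to 0.0854, so whether the numbers pair the samples is not known. With the replicate block 148 genes passed, the 68 among them, 0 of them called after CCl4 too.

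Fgfr3 stayed below 0 and uncalled in every alternative (-0.57 to -0.02 with a library left out). The 6 genes called after both treatments were 18 in 1 model of 12 samples, 3 without the trend, 1 with the stricter filter, 2 with a pseudocount of 0.1, 34 with library weights and 2 to 6 with a library left out. The interaction called 2 genes without the trend, 141 with library weights and 0 to 3 with a library left out.

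Differences near 0 changed sign. Fgfr1 became -0.57 with library weights, -0.049 from FPKM, -0.17 without Alb-R3 oil replicate 3 (by its label) and -0.35 when Alb-Cre oil replicate 3 was left out, and ranged from -0.35 to 0.30 with a library left out. Fgfr4 became -0.067 with weights and -0.051 without Alb-Cre oil replicate 3 (range -0.051 to 0.12). Fgf21 became 0.063 with weights, 0.081 without Alb-R3 oil replicate 3, and 0.05 when Alb-Cre oil replicate 3 was left out (range -0.93 to 0.081). With weights 11 of the 12 endothelial markers passed, and without the trend 0. A single read was worth 0.972 to 1.19 normalized counts in the oil libraries, so values of a few counts rest on a few reads, and 3 samples a group limit the precision of every difference.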
